A study of Mus musculus with 5 samples.

Results

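Box C/D small nucleolar RNAs (snoRNAs) were read in 5 melRNA-seq libraries of mouse testis RNA, a method for sequencing RNA of medium length. The members were all names beginning with SNORD among the snoRNA names of the read tables, which gave 86 of the 1043 names with reads. Of these 86 names, 85 had reads in untreated testis RNA, 84 after TAP, 85 after 5Pase, and 84 and 83 in replicates 1 and 2 of spermatogonia. The tables count names at the level of the family, except that SNORD115-10 is listed apart from SNORD115. SNORD15, for example, joins Snord15a and Snord15b, and copies under the same name could not be told apart.

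Box C/D snoRNAs are short nuclear RNAs named after 2 conserved motifs near their ends, box C (TGATGA in its commonest form) and box D (CTGA). With the proteins fibrillarin, NOP56, NOP58 and SNU13 they guide 2'-O-methylation of ribosomal and spliceosomal RNA. Most are cut out of introns of host genes, many of which encode ribosomal proteins or are long non-coding RNAs such as Gas5 and Snhg1, and the trimmed RNA carries a 5' monophosphate. A few, such as U3, U8 and U13, are transcribed from their own promoters and carry a cap.

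All libraries came from C57BL/6J mice. Total RNA of whole testis was sequenced in 3 libraries, 1 for each treatment: without enzyme, after tobacco alkaline phosphatase (TAP, 25 U for 1.5 h), and after 5' polyphosphatase (5Pase, 20 U for 30 min), each from 600 ng of RNA. TAP opens caps and triphosphates to a monophosphate, and 5Pase acts on triphosphates and leaves caps, so that the treatments change which 5' ends can be ligated to an adaptor. RNA of spermatogonia, the germ cells that divide at the base of the testis tubule, sorted by FACS at postnatal day 7, was sequenced in 2 replicates after RppH, an enzyme that also opens caps and triphosphates (25 U for 1 h on 500 ng by the study's methods). The treatment label of these libraries gives RppH too, but their protocol text repeats that of testis, with its enzymes, amount of RNA and kit, and the methods were followed here. The tables list repeats and non-coding RNAs, so that the sorted cells could not be checked against marker genes. The study's overview gives day 7 for the whole testis too. The labels give inserts of 115 to 255 nt, selected from a gel, for all libraries, while the methods give this range for testis and name no range for spermatogonia. The spermatogonia libraries differed from the testis libraries in cells, enzyme and, by the study's methods, library kit and possibly size selection at the same time, and these differences cannot be told apart. In bulk RNA, fewer cells of a type and less RNA per cell cannot be told apart either. Because testis had 1 library for each treatment, no test between treatments or between testis and spermatogonia was possible. Ratios are given with 95% intervals from the read counts, which cover counting error only, since the reads carry no molecular identifiers. The study calls the spermatogonia libraries biological replicates, and the labels do not say whether they came from separate animals.

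The tables held 1160933, 1067851 and 1081523 reads for untreated, TAP and 5Pase testis and 3166394 and 1993087 for the spermatogonia replicates. Of these, 5.8S rRNA, which is cut from its precursor and served as the unit of the study, had from 207996 reads in 5Pase testis to 1236959 in spermatogonia replicate 1. It made up 27.2% of the listed reads of untreated testis, 50.2% after TAP, 19.2% after 5Pase, and 39.1% and 25.9% in spermatogonia. Levels are given as reads per 1000000 5.8S rRNA reads (RPM) and were not divided by RNA length.

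Sequences of the snoRNAs on which the results below turn were taken from the GENCODE annotation M21 of GRCm38, in which 56 of the 86 names matched a gene by symbol, 55 of them a gene of type snoRNA. Of the 82 genes matched 50 lay in introns of a host gene, and 32 overlapped an exon of at least 1 annotated host transcript. Capitals mark the first TGATGA (box C) and the last CTGA (box D), and a sequence without capitals at its start has no exact TGATGA. Among the 99 Snord transcripts of the annotation 75.8% hold TGATGA and 100% hold CTGA on the transcript strand, against 0% and 54.8% of the 42 Snora transcripts. Members of leading names of untreated testis are shown first. Snord12 lies at chr2:167065276-167065365 on the plus strand in the non-coding gene Zfas1, and Snord50a at chr9:88521529-88521600 on the minus strand in Snhg5.
Snord12: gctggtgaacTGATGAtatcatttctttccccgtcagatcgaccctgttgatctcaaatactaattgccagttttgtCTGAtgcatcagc
Snord50a: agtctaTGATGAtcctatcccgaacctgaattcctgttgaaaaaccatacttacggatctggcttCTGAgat

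The next set holds RNAs with a high ratio of spermatogonia to TAP-treated testis. Snord15a at chr7:99482785-99482932 on the minus strand and Snord15b at chr7:99479563-99479707 on the minus strand both lie in Rps3, Snord17 at chr2:144265979-144266216 on the minus strand in an intron of Snx5, Snord65 at chr11:62604515-62604586 on the plus strand in an intron of 2410006H16Rik, and Snord82 at chr1:86356261-86356330 on the minus strand in an intron of Ncl, the nucleolin gene. Snord15a and Snord15b, at 148 and 145 nt, and Snord17, at 238 nt, are longer than Snord65 with 72 nt and Snord82 with 70 nt.
Snord15a: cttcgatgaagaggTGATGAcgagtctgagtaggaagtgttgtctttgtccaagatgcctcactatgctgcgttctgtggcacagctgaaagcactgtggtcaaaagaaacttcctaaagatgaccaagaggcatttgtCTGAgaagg
Snord15b: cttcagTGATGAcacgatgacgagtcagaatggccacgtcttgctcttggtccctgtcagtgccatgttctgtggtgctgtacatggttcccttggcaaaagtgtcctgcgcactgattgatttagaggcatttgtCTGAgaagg
Snord17: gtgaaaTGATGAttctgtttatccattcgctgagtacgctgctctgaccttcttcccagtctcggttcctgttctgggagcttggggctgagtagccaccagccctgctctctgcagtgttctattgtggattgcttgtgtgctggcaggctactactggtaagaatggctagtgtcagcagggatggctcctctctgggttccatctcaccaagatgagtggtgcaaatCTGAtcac
Snord65: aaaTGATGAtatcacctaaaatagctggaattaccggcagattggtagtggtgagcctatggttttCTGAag
Snord82: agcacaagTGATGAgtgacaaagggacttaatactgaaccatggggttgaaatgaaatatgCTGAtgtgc

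The last set holds RNAs with a low such ratio. Snord88a lies at chr7:44250135-44250224 on the plus strand in 2410002F23Rik, Snord99 at chr4:132310691-132310764 on the plus strand in the non-coding gene Snhg12, Snord37 at chr10:81178950-81179013 on the plus strand in an intron of Eef2, the gene of elongation factor 2, and Snord23 at chr7:15938762-15938870 on the minus strand in an intron of Nop53. Snord35a, a member of the SNORD35 family, lies at chr7:45126346-45126435 on the minus strand in an intron of Rpl13a. These 5 RNAs measure 64 to 109 nt.
Snord88a: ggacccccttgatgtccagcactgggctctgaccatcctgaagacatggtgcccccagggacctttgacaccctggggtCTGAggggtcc
Snord99: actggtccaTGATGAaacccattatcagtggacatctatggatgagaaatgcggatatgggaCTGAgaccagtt
Snord37: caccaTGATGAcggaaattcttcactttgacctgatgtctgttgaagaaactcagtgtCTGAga
Snord23: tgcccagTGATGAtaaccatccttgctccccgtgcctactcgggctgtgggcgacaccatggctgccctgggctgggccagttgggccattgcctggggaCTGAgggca
Snord35a: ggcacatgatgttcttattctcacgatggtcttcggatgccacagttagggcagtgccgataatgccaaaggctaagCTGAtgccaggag

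The testis libraries were led by the same few names. SNORD12, SNORD43, SNORD49, SNORD50 and SNORD55 were among the 10 most read names of all 3 testis libraries. SNORD12, shown above, had 332623 RPM in untreated testis, 45752 after TAP, 452312 after 5Pase, and 12895 and 12288 in the spermatogonia replicates. Its level was the highest of all SNORD names in the untreated and TAP libraries, and in spermatogonia both replicates lay below every testis library. SNORD55 had 331161, 19979 and 488615 RPM in untreated, TAP and 5Pase testis and 2488 and 2816 RPM in the spermatogonia replicates. It led the 5Pase library and ranked only 28 in both spermatogonia libraries. SNORD50 had 284164, 14847 and 481375 RPM in testis and 17687 and 10409 in spermatogonia, so that its TAP level lay between those of the replicates. SNORD43, whose gene lies in an intron of Rpl3, had 161554, 23134 and 334612 RPM in testis and 1533 and 2279 in spermatogonia. It ranked 4, 3 and 4 in testis and 35 and 31 in spermatogonia.

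The spermatogonia libraries were led in part by other names. SNORD15, SNORD38, SNORD49, SNORD58, SNORD81, SNORD82 and SNORD101 were among the 10 most read names of both replicates, and 8 names were among the 10 of a spermatogonia library and of no testis library. SNORD58 was also among the 10 most read names of untreated and 5Pase testis, and SNORD81 among those of 5Pase testis. SNORD15 had 59531 and 48913 RPM in the replicates, against 11458, 1562 and 11678 RPM in untreated, TAP and 5Pase testis. It ranked first in both spermatogonia libraries and 29, 31 and 36 in testis, and its levels in the 2 groups did not overlap. SNORD81, from an intron of Gas5, had 25060 and 36824 RPM in spermatogonia and 47415, 3196 and 85564 RPM in testis. SNORD101 had 20883 and 28008 RPM in spermatogonia and 31032, 2500 and 45780 RPM in testis. Both thus lay above the TAP library and below the other testis libraries in each replicate. SNORD49 was the 1 name among the 10 most read of every library, with 139600, 7239 and 242144 RPM in testis and 18630 and 43630 RPM in spermatogonia.

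**Figure D1:**
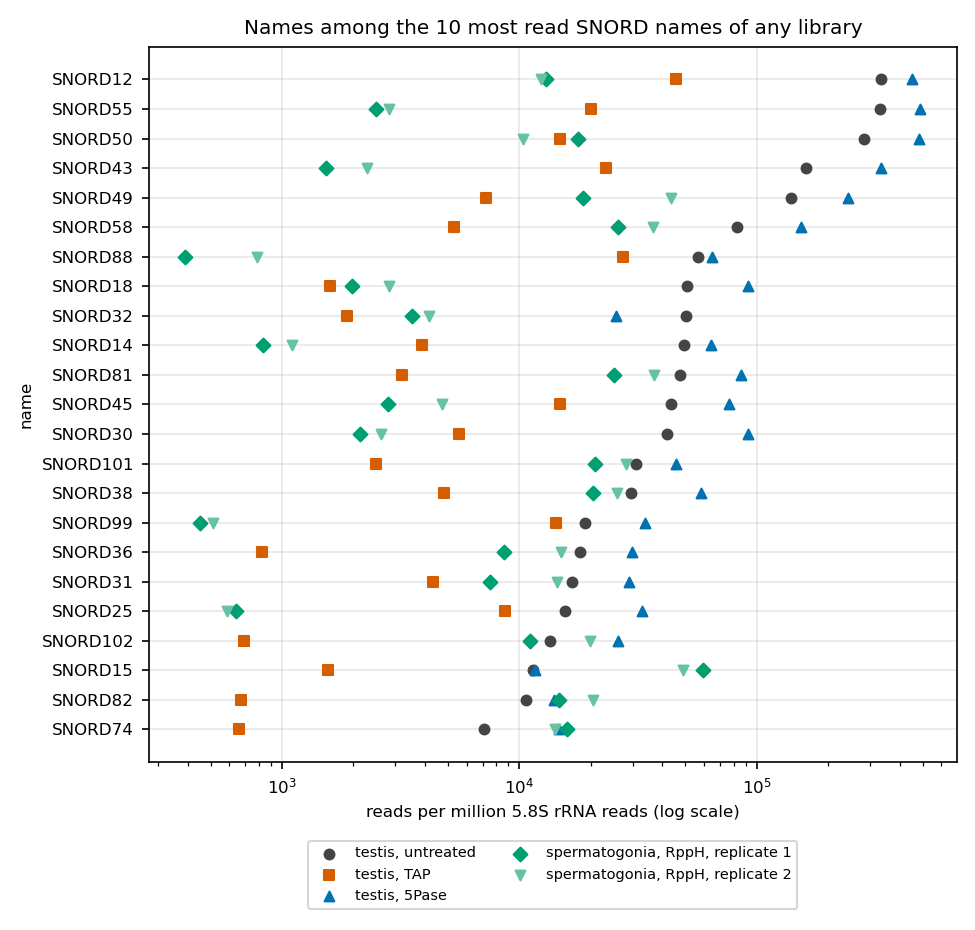
Levels of the 23 names that were among the 10 most read SNORD names of any library, in RPM on a log axis, ordered by untreated testis. Each point is 1 library. The TAP points lie left of the untreated points for every name, and SNORD15 is the name whose spermatogonia points, at 59531 and 48913, lie to the right of all its testis points by the most.

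The reads of the class were concentrated on few names. The 5 most read names held 56.1% of SNORD reads in untreated testis (95% Wilson interval 56.0 to 56.2%), 49.9% after TAP (49.7 to 50.2%) and 56.8% after 5Pase (56.7 to 56.9%). In spermatogonia they held 42.6% ± 0.499 (SD, n = 2), with 42.3% and 43.0% in the replicates, lower than in each testis library by more than the spread between replicates. The 10 most read names held 69.1, 69.2 and 71.0% in testis and 64.3% ± 0.220 (SD, n = 2) in spermatogonia. To reach 90% of SNORD reads took 26, 27 and 25 names in untreated, TAP and 5Pase testis and 30 and 28 names in spermatogonia. The most read name alone took 14.9% (SNORD12), 17.4% (SNORD12), 13.9% (SNORD55), 16.6% (SNORD15) and 10.8% (SNORD15), in the same order of libraries. At the other end, 2, 5, 2, 4 and 3 names had 3 reads or fewer.

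**Figure D2:**
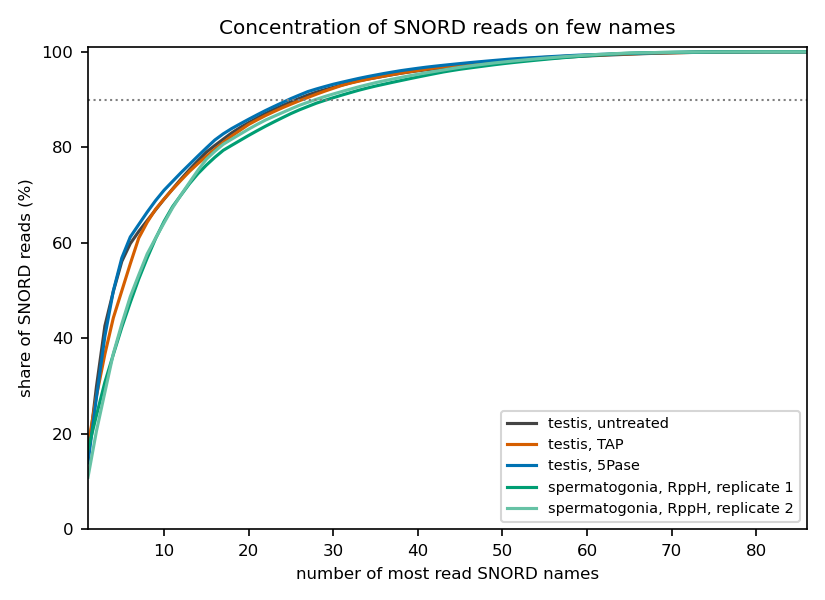
Cumulative share of SNORD reads, in percent, against the number of most read names included, with 1 line per library and a dotted line at 90%. The 2 spermatogonia lines run lowest at 5 names, at 42.3% and 43.0%, and the lines cross 90% between 25 and 30 names.

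The class as a whole was far more abundant relative to 5.8S rRNA in untreated and 5Pase testis than in TAP testis and spermatogonia. Untreated testis had 703959 SNORD reads, or 2.23 per 5.8S rRNA read, and 5Pase testis 731852, or 3.52. TAP testis had 140833, or 0.263 per 5.8S rRNA read, and the spermatogonia replicates 444528 and 232511, or 0.359 and 0.451. As a share of all listed reads SNORD names took 60.6% of untreated, 13.2% of TAP and 67.7% of 5Pase testis, and 12.9% ± 1.68 (SD, n = 2) of spermatogonia. As a share of listed reads, TAP testis and spermatogonia thus lay close together and apart from the other 2 libraries. Per 5.8S rRNA read both spermatogonia replicates lay above TAP testis.

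Per 5.8S rRNA read, the SNORD total in TAP testis was 0.118 of that in untreated testis (0.117 to 0.119), and per listed read 0.217. Of the 86 names 82 had at least 20 reads summed over the 2 libraries, and their ratios ranged from 0.0228 for SNORD65 to 0.988 for SNORD37, with a median of 0.113. None of the 82 had a ratio above 1. A name was called lower when its ratio was 2-fold or more below 1 with an interval excluding 1, which held for 76 names, and 0 were higher. Of all 254 names of the tables with enough reads, 50.4% were lower and 26.0% higher by the same rule. The 44 names of box H/ACA snoRNAs (SNORA), which guide pseudouridylation, had a median ratio of 0.428.

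A name was taken to depart from its class when its ratio lay 2-fold or more from the median of the SNORD names and its interval excluded that median. After TAP 19 names departed above and 16 below. Of all 254 names 68.1% lay above the SNORD median by this rule and 6.69% below it. The highest was SNORD37, with 1291 reads in untreated and 2162 in TAP testis and a ratio of 0.988 (0.922 to 1.06), 8.72 times the class median. Its level per 5.8S rRNA read thus differed by less than counting error, at 4084 and 4033 RPM. SNORD99 followed with 5984 and 7614 reads and a ratio of 0.750 (0.725 to 0.776), and SNORD93 with 588 and 571 reads and 0.573 (0.510 to 0.643). SNORD69 (0.567), SNORD94 (0.564) and SNORD25 (0.560) were close to SNORD93, and the intervals of these 4 names overlapped. SNORD88 had 17885 and 14709 reads and a ratio of 0.485 (0.475 to 0.496), and with it the name took 10.4% of the SNORD reads of the TAP library against 2.54% in untreated testis. These names were therefore still 2-fold or more above the class after TAP without being higher than in untreated testis.

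At the low end SNORD65 had 1111 reads in untreated and 43 in TAP testis, a ratio of 0.0228 (0.0168 to 0.0310), 0.202 times the class median. SNORD51 had 488 and 22 reads, a ratio of 0.0266 (0.0173 to 0.0408). SNORD18, among the 10 most read names of untreated testis, had 16096 and 855 reads and a ratio of 0.0313 (0.0292 to 0.0336). SNORD105 at 0.0317 and SNORD48 at 0.0330 completed the 5 lowest, and the intervals of all 5 overlapped. Of the leading names SNORD50, at 0.0522, and SNORD49, at 0.0519, also departed below, whereas SNORD12, at 0.138, SNORD43, at 0.143, and SNORD55, at 0.0603, stayed within 2-fold of the median.

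The 5Pase library differed much less. Its SNORD total per 5.8S rRNA read was 1.58 times that of untreated testis (1.57 to 1.59), and 1.12 times per listed read. Over 84 names with at least 20 reads the median ratio was 1.50, and the upper quartile lay 1.52 times above the lower, against 3.25 times for TAP. By the same rules 11 names were higher and 5 lower than in untreated testis, where 36.4% and 3.16% of all 253 names were. From the class 0 names departed above and 9 below, against 23.7% and 6.32% of all names.

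The name with the lowest 5Pase ratio was SNORD22, or U22, a snoRNA needed for processing of the 18S rRNA precursor. It had 1520 reads in untreated and 342 in 5Pase testis, a ratio of 0.342 (0.304 to 0.385). In TAP testis it had 406 reads, a ratio of 0.158 that lay within 2-fold of the class. SNORD51 had 488 and 129 reads, a ratio of 0.402 (0.331 to 0.488), and SNORD35 had 2284 and 720, a ratio of 0.479 (0.441 to 0.521). SNORD105 at 0.485 and SNORD85 at 0.489 were next, followed by SNORD32 (0.505), SNORD116, SNORD28 (0.707) and SNORD62 (0.723). SNORD116 had only 15 and 5 reads and a ratio of 0.507 (0.184 to 1.39). SNORD42 had the highest ratio, 2.74 (2.60 to 2.88), from 2216 and 3988 reads, and did not reach 2-fold above the class median.

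**Figure D3:**
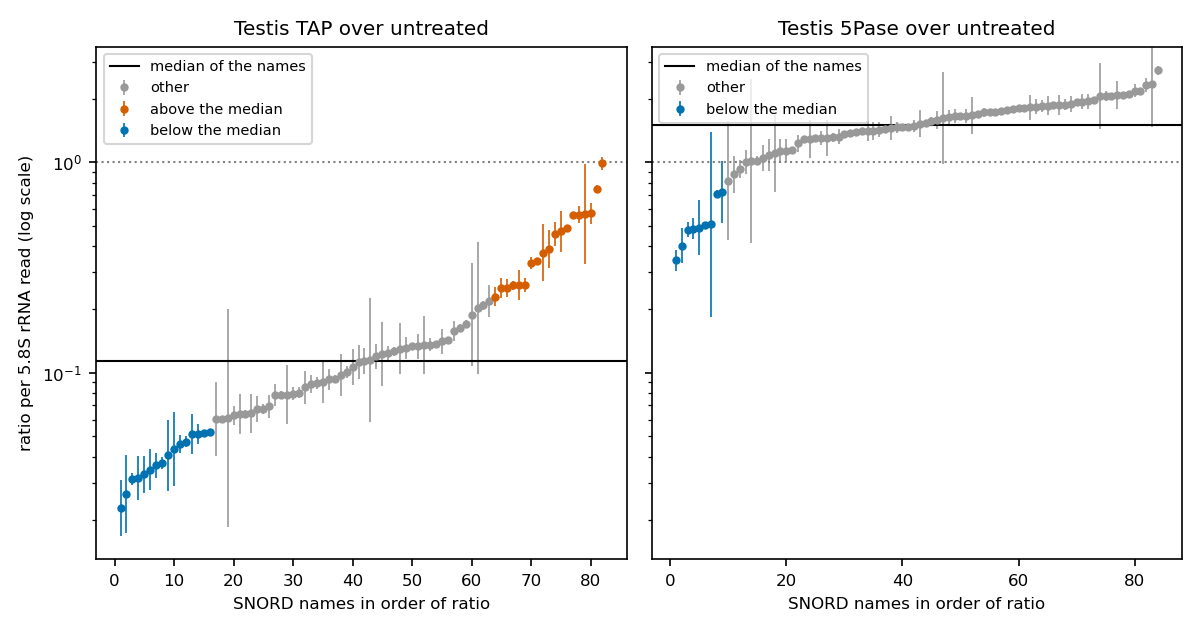
Ratios per 5.8S rRNA read to untreated testis for TAP (left, 82 names) and 5Pase (right, 84 names), on a log axis in order of ratio, with 95% counting intervals. Black lines mark the class medians of 0.113 and 1.50, the dotted line marks 1, and the colours mark 19 names above and 16 below the median after TAP and 9 below it after 5Pase.

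Spermatogonia were compared with the TAP library, the testis library whose enzyme acts most like RppH. The SNORD total per 5.8S rRNA read was 1.37 and 1.72 times that of TAP testis in the replicates, and per listed read 1.06 and 0.885 times. Replicate 1 thus lay above 1 in both units, and replicate 2 changed side with the unit. Single names ranged far more widely than the total. Over 83 names with at least 20 reads the median ratios were 1.53 and 1.78, and the upper quartile lay 18.8 and 20.5 times above the lower. In both replicates 36 names were 2-fold or more higher than in TAP testis and 23 lower, against 47.6% and 16.2% of all 481 names. From the class 29 names departed above and 28 below in both replicates, against 37.8% and 20.2% of all names. Among 56 SNORA names 13 and 20 departed from their own median.

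By the mean of the replicates, the name furthest above the class was SNORD65, the same name that was lowest after TAP, and both ratios share the TAP library. It had 43 reads in TAP testis and 4598 and 1802 in spermatogonia, with ratios of 46.3 (34.3 to 62.6) and 43.6 (32.2 to 59.0). Against untreated testis its ratio was 1.06 and 0.994, so that its spermatogonia level was high against the TAP library and near that of untreated testis. SNORD17 had 61 reads in TAP testis and 6536 and 2270 in spermatogonia, with ratios of 46.4 (36.1 to 59.7) and 38.7 (30.0 to 49.9). Against untreated testis its ratios were 6.05 and 5.04, and against 5Pase testis 2.90 and 2.42. SNORD15 had 837 reads in TAP testis and 73637 and 25220 in spermatogonia, with ratios of 38.1 (35.6 to 40.8) and 31.3 (29.2 to 33.6). Against untreated testis it was 5.20 and 4.27, and against 5Pase testis 5.10 and 4.19. SNORD15 and SNORD17 were thus higher in spermatogonia than in each of the 3 testis libraries, while the class total was 0.182 ± 0.0291 (SD, n = 2) of untreated testis. SNORD20, SNORD21, SNORD29, SNORD72 and SNORD82 were also higher than in each testis library in both replicates.

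SNORD17 was the highest name in replicate 1, and SNORD20 in replicate 2. SNORD20 and SNORD29 completed the 5 highest by the mean. SNORD20 had 16 reads in TAP testis and 526 and 1030 in spermatogonia, with ratios of 14.2 (8.66 to 23.4) and 66.9 (40.8 to 110) that differed more between replicates than those of any other SNORD name with at least 20 reads in spermatogonia. SNORD29, from an intron of Snhg1, had 132 reads in TAP testis and 10790 and 3465 in spermatogonia, with ratios of 35.4 and 27.3. SNORD21, in the ribosomal protein gene Rpl5, followed with 18.6 and 37.0, and SNORD82, in Ncl, with a mean of 26.3 ± 6.11 (SD, n = 2). Against untreated testis the ratios of SNORD21 were 4.08 and 8.11, and those of SNORD82 were 1.38 and 1.92. Against 5Pase testis they were 3.89 and 7.73 for SNORD21, 1.60 and 1.23 for SNORD29 and 1.05 and 1.46 for SNORD82.

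The name furthest below the class in both replicates was SNORD23. It had 485, 375 and 361 reads in untreated, TAP and 5Pase testis and only 2 and 4 reads in spermatogonia, although these libraries had more 5.8S rRNA reads than the untreated and 5Pase libraries. Its ratios to TAP testis were 0.00231 (0.000576 to 0.00928) and 0.0111 (0.00414 to 0.0297). SNORD88 had 17885, 14709 and 13459 reads in testis and 485 and 403 in spermatogonia, with ratios to TAP of 0.0143 (0.0131 to 0.0156) and 0.0285 (0.0258 to 0.0314). SNORD85 had 139 reads in TAP testis and 10 and 4 in spermatogonia, with ratios of 0.0312 and 0.0299. SNORD99 had 7614 reads in TAP testis and 561 and 264 in spermatogonia, with ratios of 0.0319 and 0.0361, and SNORD35 had 1290, 137 and 61 reads, with 0.0460 and 0.0492. Against untreated testis these 4 names gave mean ratios of 0.0104, 0.0144, 0.0255 and 0.0159 in the same order, all below the 0.182 of the class total. SNORD90 was not detected in spermatogonia, with 0 reads in both replicates against 339, 25 and 340 in untreated, TAP and 5Pase testis. The 3 reads that a count of 0 allows place it at least 19.2-fold and 8.02-fold lower than in TAP testis.

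Other names departed from the class on both sides. SNORD48, which was low after TAP, had 97 reads in TAP testis and 4588 and 2493 in spermatogonia. Its ratios to TAP testis were 20.5 (16.8 to 25.1) and 26.7 (21.8 to 32.7), and both comparisons share the TAP library. Against untreated testis its spermatogonia ratios were 0.675 and 0.880. SNORD102 had 372 reads in TAP testis and 13678 and 10250 in spermatogonia, with ratios of 15.9 and 28.6, and SNORD36 had 442, 10613 and 7740 reads, with 10.4 and 18.2. The ratios of SNORD101 were 8.35 and 11.2, and those of SNORD58, from an intron of Rpl17, were 4.92 and 6.88. Among the leading names of testis, SNORD43 had ratios of 0.0663 and 0.0985, SNORD12 of 0.282 and 0.269, and SNORD45, from Rabggtb, of 0.189 and 0.319. SNORD37 and SNORD93, which had stayed high after TAP, had mean ratios of 0.153 ± 0.00191 and 0.114 ± 0.0345 (SD, n = 2), and these share the TAP library with the ratios to untreated testis. SNORD50, at 1.19 and 0.701, and SNORD49, at 2.57 and 6.03, did not depart in both replicates.

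**Figure D4:**
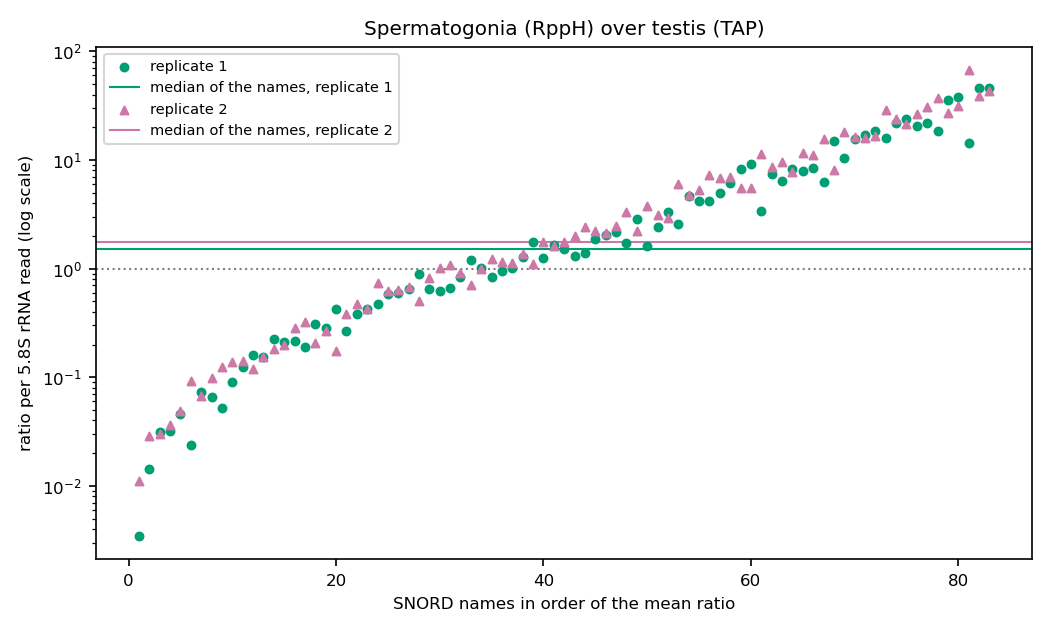
Ratio of spermatogonia to TAP testis per 5.8S rRNA read for 83 SNORD names on a log axis, in order of the mean of the replicates, with 1 point per replicate, lines at the replicate medians of 1.53 and 1.78 and a dotted line at 1. The replicates run closely together over a range from SNORD23, at the lower end, to SNORD65. Names with 0 to 3 reads are drawn with 3 reads.

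Names from introns of the same host gene lay on both sides of the class median, as names did over the whole class, where 68.7% of the 83 names departed. Gas5, a non-coding host, had 6 of its 10 listed snoRNA families in the tables. SNORD74, SNORD79 and SNORD81 departed above the class in spermatogonia over TAP testis and SNORD75 below it. SNORD74 had 353 reads in TAP testis and 19582 and 7309 in spermatogonia, with ratios of 24.0 and 21.5, and SNORD75 had 2683, 1304 and 510 reads, with ratios of 0.211 and 0.198. The mean ratios of the Gas5 names spanned 112-fold. SNORD78 had 1 read in TAP testis and 63 and 16 in spermatogonia, so that its ratios of 27.3 (3.79 to 197) and 16.6 (2.21 to 125) were imprecise.

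Snhg1 had all 8 of its families in the tables. SNORD26, SNORD27 and SNORD29 departed above and SNORD25, SNORD28 and SNORD30 below, and their mean ratios spanned 445-fold. SNORD25 had 4655 reads in TAP testis and 788 and 303 in spermatogonia, with ratios of 0.0734 and 0.0677, whereas SNORD27 had 80, 4030 and 1823 reads, with ratios of 21.8 and 23.7. SNORD22 and SNORD31 did not depart in both replicates. In TAP over untreated testis the Snhg1 names spanned 16.2-fold, from SNORD27 at 0.0346 to SNORD25 at 0.560, and the Gas5 names 2.80-fold. Of the Rpl13a families 3 of 4 were listed, where SNORD35 departed below and SNORD32 and SNORD34 had mean ratios of 2.04 and 2.33. The copies of SNORD35 were not separated.

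In the GENCODE annotation 9 host genes held at least 2 matched names that had genes in no other host, a count made after the values above were seen. The mean ratio of spermatogonia to TAP testis spanned 10-fold or more within 5 of the 9 hosts, each with 2 such names, with a median span of 10.5-fold. Among the 5 was Gas5, whose span of 21.4-fold rested on the 1 read of SNORD78 in TAP testis. The 1369 pairs of matched names in different hosts had a median span of 7.75-fold, and 43.6% of them spanned 10-fold or more. In Nop56 SNORD57 had 7.97 ± 2.25 (SD, n = 2) and SNORD110 0.657 ± 0.0217, a span of 12.1-fold. The widest span was in Wdr43, where SNORD53 had 2.78 ± 0.510 and SNORD92 0.0586 ± 0.0490. SNORD92 rested on only 8 and 13 reads in spermatogonia, with ratios of 0.0239 and 0.0932 in the replicates. In Rack1 SNORD95 and SNORD96 had 0.603 and 0.599 and spanned only 1.01-fold, and both departed below the class.

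**Figure D5:**
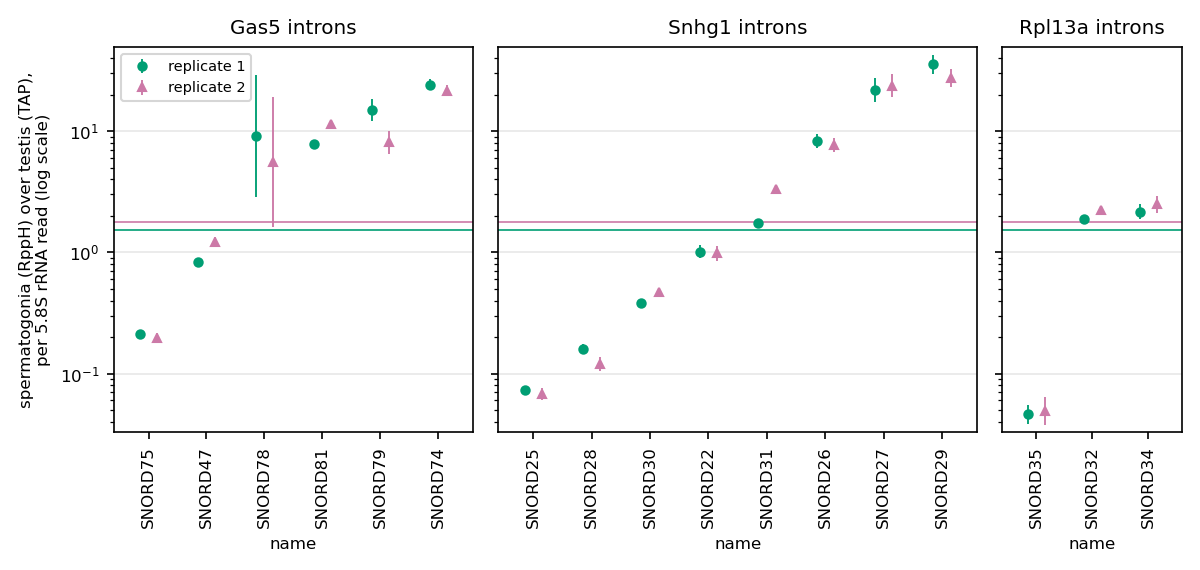
Ratio of spermatogonia to TAP testis per 5.8S rRNA read for names in introns of Gas5, Snhg1 and Rpl13a, on a log axis, with 1 point per replicate and 95% counting intervals. Horizontal lines mark the class medians of 1.53 and 1.78. Names of the same host lie on both sides of the medians, with SNORD25 at 0.0734 and 0.0677 and SNORD29 at 35.4 and 27.3 at the ends of the Snhg1 panel. SNORD78, with 1 read in TAP testis, is drawn with 3 reads.

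Of 5 families known for cleavage of the rRNA precursor only SNORD14 and SNORD22 were listed under SNORD names, and the 3 capped families, SNORD3 (U3), SNORD13 (U13) and SNORD118 (U8), were not listed under these names. SNORD14, or U14, which acts in 18S rRNA processing, had 15632, 2083 and 13386 reads in testis and 1029 and 568 in spermatogonia. Its ratio was 0.0786 after TAP and 1.30 after 5Pase, both within 2-fold of the class, and 0.214 and 0.284 in spermatogonia over TAP testis, below the class. SNORD22 had ratios of 1.02 and 0.983 there.

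Of the imprinted clusters, the Snrpn domain was read at a low level and SNORD113 of the Dlk1-Dio3 domain near the median SNORD name of untreated testis (3878 against 4168 RPM) and of 5Pase testis (6380 against 6570 RPM). SNORD113 lay below the median name in TAP testis (465 against 608 RPM) and further below it in the spermatogonia replicates (307 against 1150 and 500 against 1304 RPM). In the Snrpn domain, from which SNORD116, the cluster linked to Prader-Willi syndrome, and SNORD115 and SNORD64 arise, 3 of 6 families were listed, with 45, 12 and 50 reads in testis and 143 and 119 in spermatogonia. SNORD64 had 29, 10 and 45 reads in testis and 96 and 70 in spermatogonia, with ratios to TAP of 4.16 (2.17 to 7.98) and 7.28 (3.75 to 14.1). SNORD116 had 15, 2 and 5 reads in testis and 43 and 45 in spermatogonia, with ratios to TAP of 9.32 (2.26 to 38.5) and 23.4 (5.67 to 96.4). SNORD115 had 4 reads in each spermatogonia library and 1 in testis. SNORD115-10, listed under a name of its own, is in none of these counts. In the Dlk1-Dio3 domain SNORD113 had 1226, 249 and 1327 reads in testis and 380 and 258 in spermatogonia and stayed within 2-fold of the class after TAP and after 5Pase, while its ratios to TAP in spermatogonia were 0.661 and 1.08.

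Annotated length was available for 55 of the 86 names, or 64.0%, which is too few for a comparison of length or GC content over the class, and none was made. Of these 55 names 52 had genes shorter than 115 nt, the lower end of the inserts as the labels give it. The other 3 were SNORD15, SNORD17 and SNORD22. Together these took 0.770, 0.926 and 0.430% of SNORD reads in untreated, TAP and 5Pase testis and 18.2 and 12.0% in spermatogonia. SNORD15 and SNORD17 had high spermatogonia ratios to TAP testis, and SNORD22 did not. SNORD65, SNORD21 and SNORD82, with high ratios to TAP testis too, are 72, 94 and 70 nt long. Against untreated testis the ratios were 5.20 and 4.27 for SNORD15, 6.05 and 5.04 for SNORD17 and 0.160 and 0.155 for SNORD22. They were 1.06 and 0.994 for SNORD65, 4.08 and 8.11 for SNORD21 and 1.38 and 1.92 for SNORD82. SNORD94, outside the 55 names and 137 nt long in RefSeq, had ratios of 0.428 and 0.427 to TAP testis. The part of the size selection, which may have differed between testis and spermatogonia, in these values was not tested.

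Between the spermatogonia replicates the levels of single names varied less than between spermatogonia and testis. Over 80 names with at least 20 reads the ratio of replicate 2 to replicate 1 per 5.8S rRNA read had a median of 1.13 and ranged from 0.410 for SNORD83 to 4.70 for SNORD20. Of these names 71 lay within 2-fold of the median, 6 were 2-fold or more above it and 3 below. The correlation of log10(RPM + 1) across these names, which are not independent and share 2 libraries, was 0.976 (Pearson) and 0.972 (Spearman).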

How the data were processed

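Testis RNA without enzyme, after TAP and after 5Pase (1 library each) and spermatogonia RNA after RppH (2 replicates) were analysed as grouped by the sample labels. The deposited values are counts, which the authors made per repeat or RNA name by removing the adaptor with Cutadapt, discarding reads without it and assigning the others with RepeatMasker. The versions, the repeat library and the genome build are not given in the sources used here. Members and lists were chosen with earlier results of these data known. A line that gave a name without a count, of which 2 tables held 1 each, was left out. There were no columns of other samples.

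As in the study, counts were scaled to 1000000 5.8S rRNA reads of their library (RPM). Single names entered a comparison with at least 20 reads summed over the libraries compared. Ratios have 95% intervals computed on the log scale, with the reciprocals of both counts added up as the variance, and shares have Wilson intervals. In calls, counts of 3 or fewer were set to 3, while ratios printed for names with 1 to 3 reads use the reads themselves. The scripts were tested on simulated data. No test across names was run. Some host genes and 1 sequence are not reported here. Named in the text are the 10 most read names of each library, the 5 highest and 5 lowest departing names of each comparison, and the members of lists by host gene, cap, rRNA cleavage and imprinted domain, and a few names added after their values were seen. Computations used Python 3.11.15, numpy 2.4.6, pandas 2.3.3, scipy 1.17.1 and matplotlib 3.10.9. Alternatives were other denominators, thresholds, reference libraries and leaving out names or replicates.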

Additional observations from a re-analysis of the deposited data

Results flagged for a closer look

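Among the 13 snoRNA names that begin with neither SNORD nor SNORA, snoMBII-202 and snoU2 lay in spermatogonia above every testis library. How many of all names lay above every testis library was not counted, so that no share stands beside this. By another rule, against TAP testis alone, 47.6% of all 481 names of the tables were 2-fold or more higher in spermatogonia. snoMBII-202, a name that RefSeq gives as a synonym of Snord68, itself a box C/D snoRNA, had 813, 293 and 1246 reads in untreated, TAP and 5Pase testis and 30270 and 18391 in spermatogonia. That is 30070 ± 7918 RPM (SD, n = 2) in spermatogonia against 2572, 547 and 5990 RPM in testis, a ratio to TAP testis of 44.8 and 65.3. snoU2 had 19, 2 and 10 reads in testis and 92 and 31 in spermatogonia, or 67.2 ± 10.1 RPM (SD, n = 2) against 60.1, 3.73 and 48.1 RPM. Its lower replicate, at 60.1 RPM, differed from untreated testis by less than counting error. Neither difference was tested.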

How the results depend on the processing

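Per listed read the SNORD totals were 0.217 (TAP over untreated), 1.12 (5Pase over untreated) and 0.975 (spermatogonia over TAP testis, mean of replicates, against 1.54 per 5.8S rRNA read). Per listed read other than SNORD they were 0.0986, 1.36 and 0.972, and per sequenced read 0.191, 1.21 and 1.34. The spermatogonia total thus lay below 1 under 2 of the 3 denominators tried in place of 5.8S rRNA. Without the most read names the TAP and 5Pase totals were 0.115 and 1.65. Against 5Pase and untreated testis the spermatogonia total was 0.115 and 0.182. Without either replicate it ranged from 1.37 to 1.72. At 3-fold in place of 2-fold, 20 names departed after TAP (35 in the report) and 5 after 5Pase (9 in the report). The other counts of departing names stayed within 1.5 times, from 48 to 61 for spermatogonia over TAP testis, where leaving out either replicate gave 61. Comparisons of TAP with 5Pase testis and of spermatogonia with untreated testis were added after seeing the data and moved no count by over 1.5 times. Without the most read name the 5 most read held 52.8, 46.2, 54.9 and 39.7% in untreated, TAP and 5Pase testis and spermatogonia, and 10 names held 69.1, 69.2, 71.0 and 64.3%. Without either replicate the spermatogonia share of 5 names ranged from 42.3 to 43.0%.

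Per SNORD read each TAP ratio is divided by that of the total, 0.118, so that every name above the total comes to lie above 1, which follows from the scaling and bears on no single name. Among the SNORDs named by rule and called lower per 5.8S rRNA read this gave SNORD113 1.02, SNORD12 1.17, SNORD15 1.16, SNORD17 1.10, SNORD20 1.60, SNORD22 1.34, SNORD23 3.86, SNORD26 1.19, SNORD28 1.77, SNORD30 1.13, SNORD31 2.21, SNORD35 2.82, SNORD38 1.39, SNORD43 1.21, SNORD45 2.88, SNORD64 1.72, SNORD75 1.45, SNORD85 3.99 and SNORD88 4.11. Names added after their values were seen, such as SNORD21 and SNORD92, were left out of this list. No 5Pase or spermatogonia ratio of a SNORD named by rule and called 2-fold from 1 turned. No paired analysis was possible because each testis treatment has 1 library.

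With 1 library per testis treatment, the spread between testis libraries of 1 treatment is unknown, and what was particular to a library cannot be told apart from its treatment.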

Other observations

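Other snoRNA names outside the SNORD prefix also moved apart from one another. Members were chosen by prefix, so that box C/D snoRNAs listed under other names, such as snoMBII-202, are not in the class values. SNORND104 had 855 reads in untreated and 2136 in TAP testis, a ratio per 5.8S rRNA read of 1.47 (1.36 to 1.59), above 1, where none of the 82 SNORD names with at least 20 reads lay above 1. Its ratio of spermatogonia to TAP testis was 0.162 ± 0.0412 (SD, n = 2). snoU83B had 49591, 10833 and 42554 reads in testis and 2438 and 1743 in spermatogonia, a ratio to TAP testis of 0.132 ± 0.0493. Its 156872 RPM in untreated testis lay between the levels given above for SNORD43 and SNORD49. By its name it may belong with Snord83b, a gene matched here to SNORD83, which was not checked. snoZ17 was lower still, with 11661, 1632 and 15013 reads in testis and 32 and 16 in spermatogonia, a ratio of 0.00934 ± 0.00120. snoU6-53 had 2865, 1443 and 1552 reads in testis and 7 and 2 in spermatogonia.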
